A study of Mus musculus with 30 samples.

Results

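The CpGs described here lie around the ends of 10 imprinted genes of the mouse: Peg3, Usp29, Peg10, Sgce, Mest, Plagl1, Impact, Grb10, Inpp5f and Fkbp6. A CpG belonged to the set when it lay within 3000 bp of either end of a RefSeq gene body on GRCm38 and had 10 or more reads, both strands summed, in every library. This gave 99 CpGs of the 416876 that met the same read minimum in all 30 libraries. They came from 11 of the 20 gene ends and form 9 distinct windows, because Peg3 shares its CpGs with Usp29 and Peg10 shares its CpG with Sgce. A wider set, read at least 10 times in 10 or more mice per group, held 217 CpGs at the same gene ends. A mouse's level in the wider set averages only the CpGs that reached 10 reads in that mouse.

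Sperm of the cauda epididymis came from male C57BL/6J mice (strain label C57BL/6), each housed alone. In the cadmium group 15 mice drank RO water that held cadmium at 0.9 ppm, added as cadmium chloride, at a mean dose of 0.68 mg per kg of body weight, and in the vehicle group 15 mice drank RO water. The labels give 7 weeks as the initial age and 9 weeks after treatment as the time of sampling, and both groups ate a diet with 10% of its energy from fat. Each library holds the sperm DNA of 1 mouse. Reduced representation bisulfite sequencing covers restriction fragments rich in CpGs, after bisulfite has turned unmethylated cytosines into uracil. Each mouse's level is the unweighted mean over the CpGs of a window, in percent.

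These genes are expressed from the copy inherited from the father, except that Grb10 is so expressed mainly in neurons, with the maternal copy active in most other tissues, and that only a short form of Inpp5f is imprinted. The mark is DNA methylation that the egg sets at a promoter or CpG island and that is absent from the same stretch in the male germ line. The zinc finger protein ZFP57 binds the methylated hexamer TGCCGC at many such stretches in the mouse embryo and helps to keep the mark. Peg3 and Plagl1 encode zinc finger transcription factors, and Usp29 a ubiquitin-specific protease that is transcribed away from Peg3. Peg10, a gene derived from a retrotransposon that the placenta needs, stands head to head with Sgce, which encodes epsilon-sarcoglycan. Mest encodes a hydrolase-fold protein linked to growth, Grb10 an adaptor that restrains insulin signalling, Inpp5f an inositol phosphatase, Impact a regulator of the GCN2 stress kinase pathway, and Fkbp6 a co-chaperone needed in male meiosis.

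RefSeq promoter sequences, 300 bases around a transcript's start on GRCm38.p6, were at hand for 7 of the 10 genes. The 3 shown set a window of intermediate methylation, Plagl1, beside an unmethylated window, Grb10, and a window of mixed levels, Fkbp6. Each runs 5′ to 3′, and capitals mark the CpGs of the wider set.
Plagl1, chr10:13090582-13090881, forward strand: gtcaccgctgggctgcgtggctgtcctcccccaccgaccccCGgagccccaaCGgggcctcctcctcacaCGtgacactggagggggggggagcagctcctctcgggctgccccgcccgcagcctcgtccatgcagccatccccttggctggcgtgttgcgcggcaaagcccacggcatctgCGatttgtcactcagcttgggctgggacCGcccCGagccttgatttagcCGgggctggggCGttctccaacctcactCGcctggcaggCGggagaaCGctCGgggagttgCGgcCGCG
Grb10, chr11:12037371-12037670, reverse strand: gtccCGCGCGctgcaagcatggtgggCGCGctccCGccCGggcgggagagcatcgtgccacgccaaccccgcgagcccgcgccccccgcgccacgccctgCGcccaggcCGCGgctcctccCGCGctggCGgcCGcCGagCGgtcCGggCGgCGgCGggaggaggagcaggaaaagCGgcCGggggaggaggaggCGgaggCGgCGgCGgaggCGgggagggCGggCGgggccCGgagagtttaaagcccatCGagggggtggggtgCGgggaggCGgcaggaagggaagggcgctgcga
Fkbp6, chr5:135349864-135350163, reverse strand: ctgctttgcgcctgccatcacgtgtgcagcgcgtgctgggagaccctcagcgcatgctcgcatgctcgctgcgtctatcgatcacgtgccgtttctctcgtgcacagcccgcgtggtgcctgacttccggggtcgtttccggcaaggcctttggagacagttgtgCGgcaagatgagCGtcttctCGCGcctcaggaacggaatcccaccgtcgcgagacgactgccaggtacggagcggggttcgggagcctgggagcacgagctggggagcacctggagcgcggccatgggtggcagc
The 15 marked CpGs of the Plagl1 promoter averaged 12.2% in cadmium mice and 15.4% in vehicle mice. At the Grb10 promoter the mean of the 33 marked CpGs was 0.749% with cadmium and 0.572% with vehicle. For the 4 marked CpGs of the Fkbp6 promoter it was 33.3% ± 35.1 among 11 cadmium mice and 24.5% ± 37.9 among 10 vehicle mice (SD). Depth at these 4 was low, with a median of 15 reads per CpG. Single mice there ranged from 0% to 93.9% with cadmium and from 0% to 100% with vehicle. The hexamer TGCCGC, searched on both strands, occurred in 6 of the 11 promoter entries of the members and in 11.6% of the 32851 promoters of this length. Each of the 3 sequences shown holds it once, and the Mest entries that start at 30737800 and 30737803 hold it at 2 places each. These Mest entries overlap and hold the same matches, and the Fkbp6 entries also overlap, so the 11 entries are not independent. The entries of Peg3, Usp29 and Inpp5f hold no match in these 300 bases. Nor do the Mest entry that starts at 30733256 and the Grb10 entry that starts at 12027922.

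Coverage summed over cytosines was 57856937 to 79777446 in cadmium libraries and 53591172 to 94090975 in vehicle libraries. Mitochondrial reads made up 0.0586% ± 0.0252 of coverage in cadmium and 0.0584% ± 0.0342 in vehicle libraries (SD, n = 15 each), from 0.0127% to 0.119% over all. The H19 control region on chromosome 7, at 142580146 to 142582146, is known to be methylated in sperm. It averaged 86.4% ± 10.5 in the cadmium group and 87.7% ± 13.4 in the vehicle group over 2 CpGs, with single mice from 62.5% to 100%. Gene-end windows of germ cell genes, which body cells methylate and sperm do not, were measured for 11 of 17 listed genes, and their mean ran from 7.26% to 60.9% over the 30 mice. This mean was 28.3% ± 12.1 in cadmium and 25.2% ± 16.5 in vehicle mice, so these markers of sperm identity varied widely between libraries of both groups. The level of a window is a share of reads, and the tables do not show whether it comes from a minority of fully methylated molecules or from partial methylation of many.

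Cadmium and vehicle sperm did not differ past the threshold at any of these genes. Of the 7 windows with 3 or more CpGs, 0 passed in the logistic model, as did 0 of all 17236 gene-end windows (0.0%), and 0 of the 7 had an unadjusted p under 0.05, against 885 or 5.13% of all windows. In limma 0 of 17236 passed, with 615 (3.57%) at an unadjusted p under 0.05. Of the 99 CpGs, 0 passed in the logistic model, where 7 of 416876 (0.00168%) did, or 2 to 15 with any 1 mouse left out. At an unadjusted p under 0.05 there were 6 of the 99, or 6.06%, against 10.3% of all CpGs. In limma 0 of the 99 reached that level, against 1.74% of all CpGs, and 0 passed. Of the 99 CpGs, 47 averaged higher in cadmium mice, 42 lower and 10 equal, with a median difference of 0 points, which is also the median over all CpGs.

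**Figure D1:**
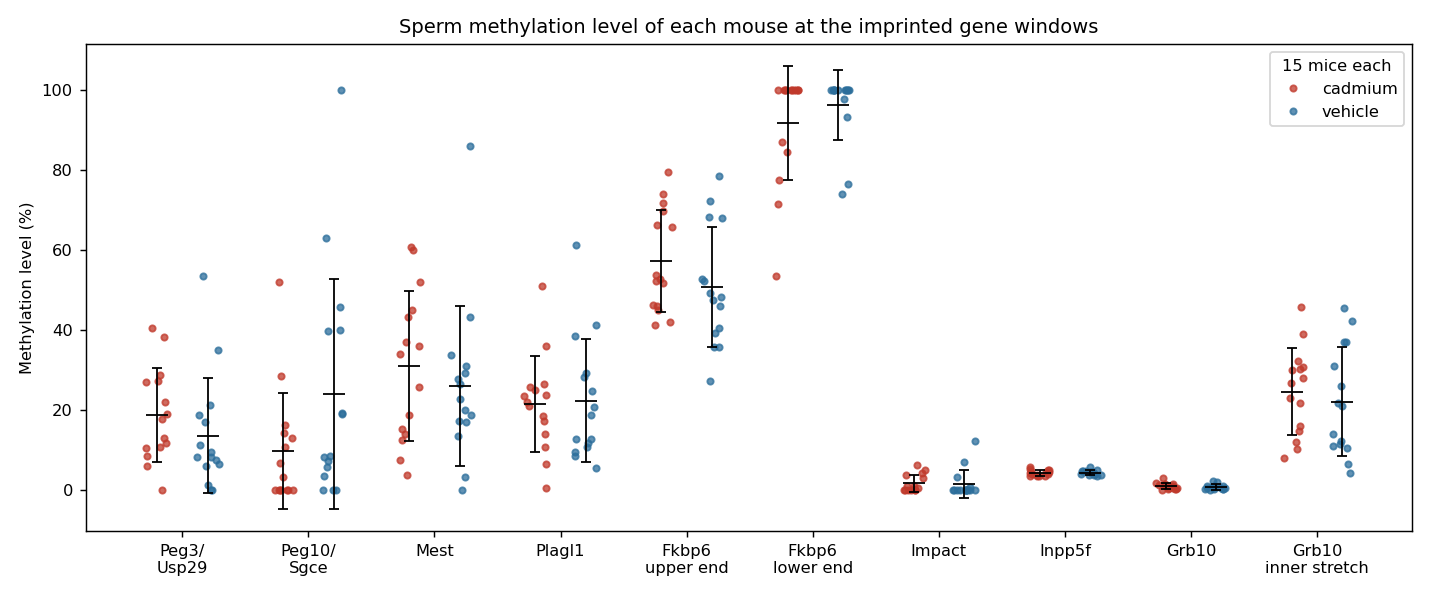
Methylation level (%, vertical axis) of each mouse at the 9 windows and at a stretch inside Grb10 (horizontal axis), with 15 cadmium mice at the left and 15 vehicle mice at the right of each pair; black marks are means and bars are SD. Levels are spread from 0% to 86% at Mest and stay under 5% in every mouse at the Grb10 window.

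The window shared by Peg3 and Usp29 was low in most mice and reached intermediate levels in a few. It lies on chromosome 7, and its 4 CpGs at 6730279 to 6730328 sit just inside the Peg3 body, whose end is at 6730462. The level ran from 0% over a median of 17.7% to 40.4% in cadmium mice, and from 0% over a median of 8.29% to 53.5% in vehicle mice. The ranges overlapped, and 13 of 15 cadmium mice stood above the vehicle median. This count, which was not tested, was 5 to 10 at the other windows of 3 or more CpGs. Cadmium mice averaged 18.7% ± 11.8 and vehicle mice 13.6% ± 14.4 (SD, n = 15 each), a difference of 5.13 points with a 95% interval of -4.70 to 14.97 (logistic model, p = 0.577, adjusted p = 0.999). Without vehicle mouse 4 the difference was 7.99 points. The level was 0% in cadmium mouse 15 and in vehicle mice 9 and 14. There 361, 409 and 255 reads, summed over CpGs, allow up to 0.831%, 0.734% and 1.18%. A read that spans several CpGs counts at each, here and in the windows below, so such limits and intervals are too narrow. In vehicle mouse 4, the highest, 315 of 608 reads were methylated (Wilson 95% interval 47.8% to 55.8%). The 4 CpGs moved as a block, with a median SD of 3.58 points between them within a mouse and 13.97 points between mice at a CpG. The CpG of smallest p and widest spread, at 6730327, averaged 23.2% ± 18.5 in cadmium and 15.1% ± 17.5 in the vehicle group (p = 0.315, adjusted p = 0.751). Farther off, CpGs of the wider set at 6731752 and 6731775 averaged 68.5% and 75.8% in 12 cadmium mice. In 11 vehicle mice they averaged 86.5% and 89.5%, so the direction turned there. All 7 CpGs of the wider set averaged 32.4% ± 12.8 in cadmium and 30.2% ± 11.2 in vehicle mice. Mice in which the far CpGs were not read enter with the lower CpGs only, so these means also depend on coverage.

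Plagl1, the member with the most reads at an intermediate level, showed a similar spread over 21 CpGs. They lie on chromosome 10 at 13090852 to 13091189, from 20 to 356 bp inside the gene body, whose start is at 13090832. The level ran from 0.522% over 22.1% to 50.8% in cadmium mice and from 5.41% over 18.7% to 61.2% in vehicle mice (lowest, median and highest). The means were 21.5% ± 11.9 in cadmium and 22.3% ± 15.3 in vehicle mice, a difference of -0.790 points (95% interval -11.1 to 9.52; p = 0.672, adjusted p = 0.999). Groups overlapped over nearly their whole ranges, and the 9 CpGs that averaged higher in cadmium mice stood beside 12 that averaged lower. The difference was 3.91 points without the 3 mice of highest mitochondrial share. These are vehicle mice 12, 13 and 14, so this setting removes vehicle mice only. The difference was 3.55 points on the forward strand alone, 1.99 points without vehicle mouse 13 and -2.89 points without cadmium mouse 13. In vehicle mouse 13, the highest, 1351 of 2237 reads were methylated (interval 58.4% to 62.4%), and in cadmium mouse 5, the lowest, 7 of 1075 (0.316% to 1.34%). CpG means over all mice ran from 12.5% to 29.9%, highest at 154 to 171 bp inside the body. The CpG of widest spread, at 13091051, ran from 0% to 100% in cadmium and from 0% to 79.4% in vehicle mice, and that of smallest p, at 13091188, averaged 24.6% ± 18.6 in cadmium and 13.5% ± 15.1 in vehicle mice (adjusted p = 0.612).

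**Figure D2:**
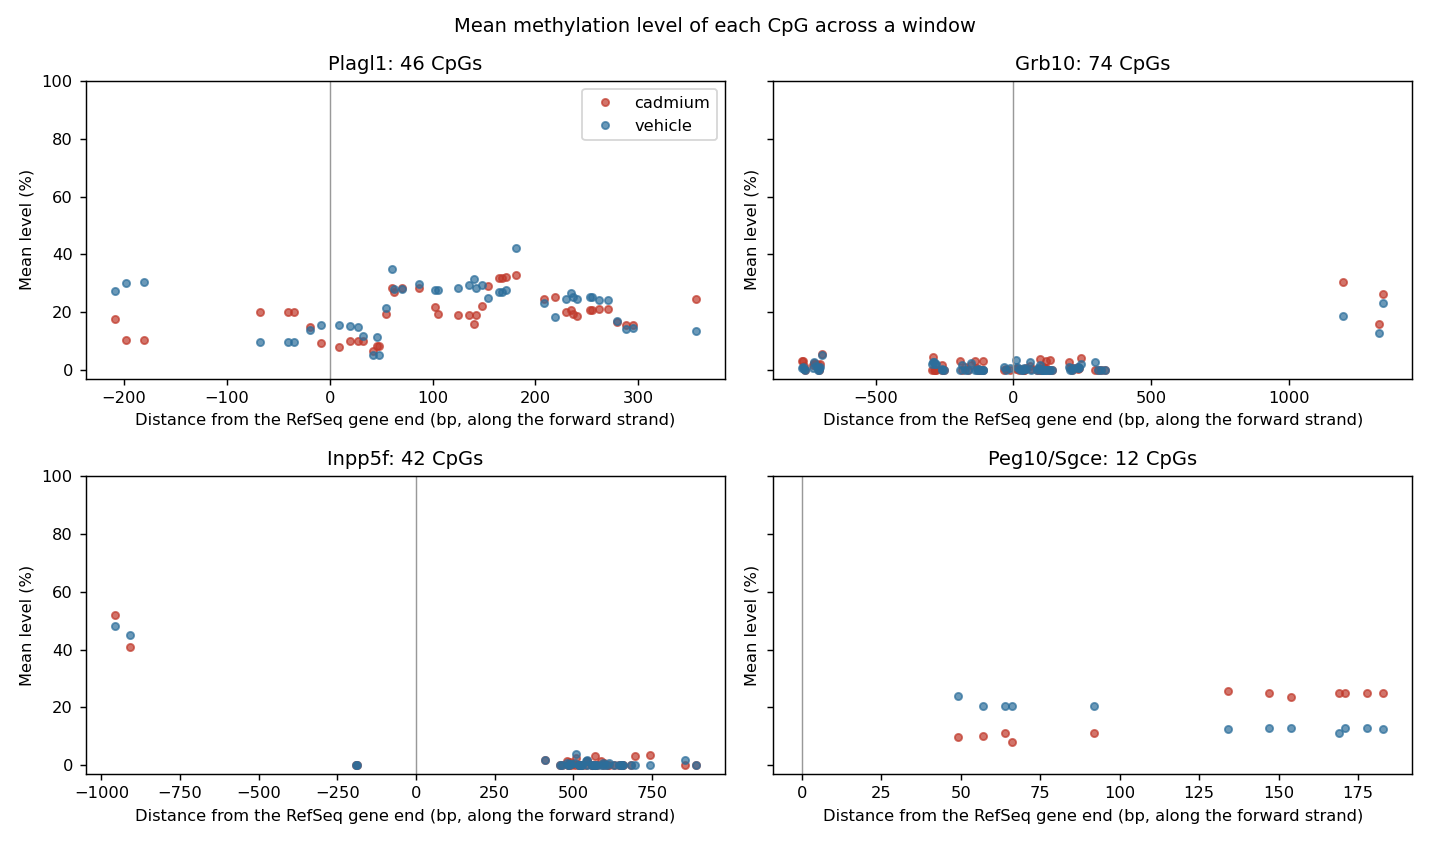
Mean methylation level (%, vertical axis) of every CpG of the wider set, against its distance (bp) along the forward strand from the gene end of the window, for cadmium and vehicle mice; the Peg10/Sgce panel counts from the Peg10 end, and Grb10 lies on the reverse strand, so that its body is at the left. Plagl1 and Peg10/Sgce sit between 5.32% and 42.2% throughout, while most CpGs near the ends of Grb10 and Inpp5f are near 0%.

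Peg10 and Sgce, which face each other on chromosome 6, were read in every mouse through 1 CpG, at 4747355. It ran from 0% over 3.33% to 52% in cadmium mice and from 0% over 8.57% to 100% in vehicle mice, with 7 cadmium and 3 vehicle mice at 0%. The means were 9.65% ± 14.5 in cadmium and 24.0% ± 28.7 in vehicle mice, a difference of -14.3 points with an interval of -31.6 to 2.98 (logistic model over all CpGs, p = 0.0895, adjusted p = 0.534). Vehicle mouse 5 was at 100% on 25 reads (86.7% to 100%), and the median was 49.5 reads a mouse. Without vehicle mouse 5 the vehicle mean was 18.5% and the difference -8.88 points. Neighbouring CpGs of the wider set did not share the direction. The 5 CpGs at 49 to 92 bp from the Peg10 end averaged 7.94% to 11.2% in cadmium and 20.6% to 24.0% in vehicle mice, all 5 lower in cadmium mice. The 7 CpGs at 134 to 183 bp averaged 23.7% to 25.8% in cadmium and 11.02% to 12.7% in vehicle mice, all 7 higher. The CpGs of each run lie close together and several share the same means, so they do not count as separate observations. The first run was read in 15 cadmium and 15 vehicle mice and the second in 12 cadmium and 14 vehicle mice. Single mice spanned 0% to 81.2% in cadmium and 0% to 100% in vehicle mice in the first run. In the second run they spanned 0% to 95.7% in cadmium and 0% to 56.5% in vehicle mice.

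Mest was the member with the widest range among windows of 3 or more CpGs. Its 4 CpGs lie on chromosome 6 at 30732801 to 30732822, before the first RefSeq start at 30733506. The level ran from 3.75% over 34.1% to 60.7% in cadmium and from 0% over 22.6% to 86.0% in vehicle mice. The groups overlapped, at 31.0% ± 18.8 in cadmium and 26.0% ± 20.005 in vehicle mice, a difference of 5.05 points (95% interval -9.46 to 19.6; p = 0.464, adjusted p = 0.999). It was 9.34 points without vehicle mouse 13 and 2.93 points without cadmium mouse 4. Without the 3 mice of highest mitochondrial share, all vehicle mice, it was 10.97 points (p = 0.0844, adjusted p = 0.691). Vehicle mouse 13, the highest here as at Plagl1, had 204 of 238 reads methylated, summed over CpGs (80.7% to 89.6%). Vehicle mouse 2 had 0 of 183, which allows up to 1.64%. At the CpG at 30732811 alone, these mice had 57 and 43 reads. The CpG of smallest p and widest spread, at 30732811, averaged 43.9% ± 27.5 in cadmium and 29.5% ± 23.5 in the vehicle group (p = 0.0983, adjusted p = 0.544). RefSeq gives further Mest starts at 30738050 and 30738053, and 3 CpGs beyond them, at 30739288 to 30739334, averaged 18.7% ± 19.3 in the cadmium group and 13.1% ± 13.6 in the vehicle group.

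The Fkbp6 window holds CpGs of unlike levels. On chromosome 5, the 3 CpGs at 135349852, 135351417 and 135351881 averaged 22.6%, 92.0% and 56.8% in cadmium mice and 18.9%, 83.6% and 49.6% in vehicle mice. The window mean was 57.1% ± 12.7 in cadmium and 50.7% ± 14.9 in vehicle mice, a difference of 6.42 points (95% interval -3.96 to 16.8; p = 0.156, adjusted p = 0.999). With the 18 CpGs of the wider set the difference was -4.82 points. Their means ran from 5.97% to 87.8% and mice lacked different ones, so this value also depends on which CpGs were read. Without the 3 mice of highest mitochondrial share, all vehicle mice, the difference was 10.7 points (p = 0.018, adjusted p = 0.593). The CpG at 135349852, nearest the RefSeq starts, had the widest spread, from 0% over 2.60% to 80.4% in cadmium and from 0% over 6.67% to 72.9% in vehicle mice. That at 135351417 gave the smallest p (p = 0.0374, adjusted p = 0.467), with SDs of 10.6 points among cadmium and 13.9 among vehicle mice. At the other end of the gene 1 CpG, at 135290876, had a mean of 91.6% ± 14.3 in the cadmium group and 96.1% ± 8.70 in the vehicle group (adjusted p = 0.719), with a median of 100% in both groups. Without cadmium mouse 1, at 53.3%, the difference was -1.77 points, against -4.50 points with it. Without the 3 mice of highest mitochondrial share, all vehicle mice, the difference was -7.67 points.

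**Figure D3:**
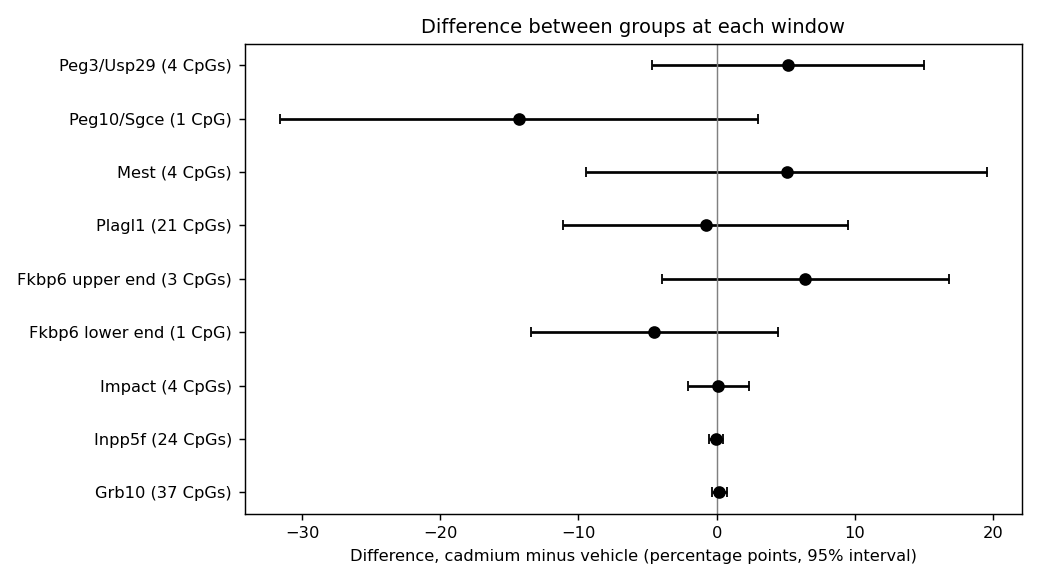
Difference in mean level between cadmium and vehicle mice (percentage points, horizontal axis) with its 95% interval for each of the 9 windows (vertical axis); points right of 0 are higher in cadmium mice. Every interval includes 0, and the widest, at Peg10/Sgce, runs from -31.6 to 2.98 points.

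Grb10, Inpp5f and Impact averaged under 5% at their annotated ends in both groups. At Grb10, 37 CpGs on chromosome 11 at 12036661 to 12037666 around the body end at 12037428 ran from 0% over 1.06% to 3.03% in cadmium and from 0% over 0.586% to 2.26% in vehicle mice. The means were 0.970% ± 0.778 in cadmium and 0.783% ± 0.654 in vehicle mice, 0.187 points apart with an interval of -0.351 to 0.725 (adjusted p = 0.999), and 0.0401 points apart without cadmium mouse 11. The CpG of smallest p, at 12036720, averaged 1.75% ± 3.64 in cadmium mice and 0% in every vehicle mouse (p = 0.0137, adjusted p = 0.405), and that of widest spread, at 12037276, 1.79% ± 6.95 in cadmium and 2.55% ± 6.52 in vehicle mice. At Impact, 4 CpGs on chromosome 18 at 12955747 to 12955819 averaged 1.66% ± 2.17 in cadmium and 1.53% ± 3.499 in vehicle mice (95% interval of the difference -2.07 to 2.32 points; adjusted p = 0.999), with 6 cadmium and 11 vehicle mice at 0%. The difference was 0.126 points, 0.887 without vehicle mouse 12 and -0.197 without cadmium mouse 4. As share of reads it was -0.141 points. The highest was vehicle mouse 12, with 58 of 394 reads methylated (11.6% to 18.6%), and the CpG of smallest p and widest spread, at 12955818, averaged 3.28% ± 6.02 in cadmium and 1.91% ± 3.75 in vehicle mice.

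At Inpp5f the window of 24 CpGs on chromosome 7, around the body end at 128611181, averaged 4.30% ± 0.720 in the cadmium group and 4.34% ± 0.582 in the vehicle group, a difference of -0.0448 points with an interval of -0.536 to 0.446 (adjusted p = 0.999), and 0.0502 points without vehicle mouse 8. Its level came mostly from 2 CpGs before the body. Those at 128610223 and 128610271 averaged 52.1% and 40.7% in cadmium and 48.3% and 45.1% in vehicle mice, while the other 22 averaged 0% to 3.22% over all mice. The CpG at 128610271 had the widest spread of the window, from 16% to 74.7% in cadmium and from 7.55% to 78.8% in vehicle mice. The CpG of smallest p, at 128611778, averaged 0.601% ± 2.33 in cadmium and 0.0687% ± 0.266 in vehicle mice (adjusted p = 0.422), on values above 0% in 2 of the 30 mice.

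Inside the bodies of these 3 genes, more than 3000 bp from either end, lay stretches with higher levels than at the ends. The neuronal transcripts of Grb10 start inside the gene. There, 49 CpGs at 12025803 to 12026463 ran from 7.95% over 26.7% to 45.8% in cadmium and from 4.25% over 20.9% to 45.5% in vehicle mice, at a median of 3651 reads a mouse summed over CpGs. The means were 24.6% ± 10.9 in cadmium and 22.1% ± 13.6 in vehicle mice, and 18 of the 30 mice were over 20%, as were 16 at Plagl1 and 18 at Mest. The Impact and Inpp5f stretches were lower, with 4 and 9 mice over 20%. At Impact, 13 CpGs at 12973131 to 12973506 averaged 12.4% ± 12.9 in cadmium and 10.7% ± 13.9 in vehicle mice, with single cadmium mice at 0% to 43.1% and vehicle mice at 0% to 55.3%. Inpp5f has an imprinted short form that starts inside the gene. There, 8 CpGs at 128688048 to 128688347 averaged 20.01% ± 24.1 in cadmium and 8.40% ± 12.7 in vehicle mice, with single cadmium mice at 0% to 83.2%, vehicle mice at 0% to 37.1%, and 13 of the 30 mice at 0%. The Impact and Inpp5f stretches rest on the wider set. Differences at stretches inside genes were not tested.

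Other stretches, inside Peg10, Impact, Inpp5f and Usp29, were highly methylated in both groups, and a stretch inside Peg3 was not. Near the far end of Peg10, 7 CpGs at 4755946 to 4756289 averaged 88.9% ± 6.78 in the cadmium group and 92.1% ± 4.68 in the vehicle group. The wider set there, 20 CpGs at 4755338 to 4756673, averaged 66.0% ± 9.12 in cadmium and 70.8% ± 13.03 in vehicle mice, with CpG means from 16.7% to 98.4%. Inside Impact, 6 CpGs at 12989903 to 12989949 averaged 95.7% ± 5.71 in cadmium and 96.0% ± 5.66 in vehicle mice, and inside Inpp5f, 5 CpGs at 128648798 to 128648847 averaged 97.6% ± 2.95 in cadmium and 95.8% ± 7.23 in vehicle mice. Inside Usp29, 4 CpGs at 6842503 to 6843115 averaged 97.9% ± 3.11 in cadmium and 98.8% ± 1.64 in vehicle mice. Inside Peg3, 3 CpGs at 6711584 to 6711610 averaged 32.4% ± 23.5 in cadmium and 38.5% ± 28.8 in vehicle mice, with cadmium mice from 4.6% to 91.2% and vehicle mice from 0% to 95.8%. In the wider set, 6 CpGs at 6711467 to 6711610 averaged 35.8% ± 21.4 in cadmium and 34.3% ± 26.8 in vehicle mice, so the direction turned.

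By the mean of vehicle mice, 75 of the 99 CpGs lay under 20%, 22 at 20 to 80% and 2 over 80%, against 65.3%, 12.7% and 22.0% of all CpGs. The SD over the 30 mice was 13.2 points at Peg3/Usp29, 13.5 at Plagl1, 14.0 at Fkbp6 and 19.2 at Mest. These exceed the SD of 91.4%, 91.7%, 92.3% and 97.0% of the 17236 gene-end windows, of which 73.0% have a vehicle mean under 20% and a median SD of 0.937 points. Windows of like level had wider spreads than all windows together. The median SD was 5.88 points, with a 95th percentile of 18.9, among 1885 windows with a vehicle mean of 10 to 30%. Peg3/Usp29, Plagl1 and Mest fall in this class, and Mest lay above its 95th percentile. The median SD was 12.6 points, with a 95th percentile of 24.2, among 2801 windows at 20 to 80%, the class of Plagl1, Mest and Fkbp6. The median SD was 10.4 points over the windows of other maternal germline imprints and 18.8 points over those of germ cell genes. The SD was 0.712 points at Grb10 and 0.644 at Inpp5f, where 25.7% and 21.5% of windows had a lower SD. The Pearson dispersion, which is 1 where reads scatter as independent draws, was 169 at Plagl1, 61.3 at Peg3/Usp29, 39.3 at Mest and 18.3 at Fkbp6, against a median of 12.6 over all windows, 29.3 in the 10 to 30% class and 32.9 in the 20 to 80% class. Windows differ in their number of CpGs and reads, which also move the SD. The dispersion grows with the reads summed in a window at a like SD, so it does not rank these windows by spread. Median reads were 1378.5 at Plagl1, 363.5 at Peg3/Usp29, 229 at Mest and 228 at Fkbp6. They were 884 over all windows, 689 in the 10 to 30% class and 401 in the 20 to 80% class.

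Across the 30 mice, 85 relations were computed with permutation tests and adjusted p-values. Among the 36 pairs of the 9 windows, 0 passed in both r and rho and 2 passed in r alone, so the pairs of loci that passed both all include the stretch inside Grb10. The Grb10 inner stretch, added to this family after the data were seen, rose with Plagl1 (r = 0.772, permutation p = 1e-05, adjusted p = 0.000121; rho = 0.755, p = 1e-05, adjusted p = 0.00017). The value 1e-05 is the smallest that 100000 resamples can give. Within groups r was 0.681 among cadmium mice and 0.841 among vehicle mice, and it was 0.719 without cadmium mouse 13 and vehicle mouse 13, the farthest from the median of Plagl1. The stretch also rose with Mest (r = 0.612, permutation p = 0.00024, adjusted p = 0.00227; rho = 0.647, p = 0.0001, adjusted p = 0.00121), with r of 0.550 in cadmium and 0.653 in vehicle mice and 0.708 without cadmium mouse 4 and vehicle mouse 13. With Fkbp6, r was 0.511 (permutation p = 0.00423, adjusted p = 0.0257) and rho 0.521 (p = 0.00359, adjusted p = 0.0277), but r was 0.370 without cadmium mouse 13 and vehicle mouse 13. Mest and Plagl1 gave r = 0.565 (permutation p = 0.00153, adjusted p = 0.0108) and rho = 0.404 (p = 0.0278, adjusted p = 0.125), so that only r passed, and r was 0.430 without cadmium mouse 4 and vehicle mouse 13. Mest and Fkbp6 gave r = 0.503 (permutation p = 0.00391, adjusted p = 0.0256) and rho = 0.471 (p = 0.00885, adjusted p = 0.0579), with r at 0.456 without the same mice.

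The relations of Peg3/Usp29 and Peg10/Sgce with the stretch did not pass. With the Grb10 inner stretch, Peg3/Usp29 gave r = 0.452 (permutation p = 0.0116, adjusted p = 0.0549) and rho = 0.404 (p = 0.0276, adjusted p = 0.125), with r of 0.173 in cadmium and 0.620 in vehicle mice and 0.431 without the mice farthest from the median. Peg10/Sgce gave r = 0.147 (permutation p = 0.450, adjusted p = 0.713) and rho = 0.250 (p = 0.182, adjusted p = 0.399), and r = 0.265 without the mice farthest from the median. Whether these r differ from that of Plagl1 was not tested. Cadmium mouse 15 and vehicle mouse 14 were at 0% at Peg3/Usp29 and at 30.3% and 36.9% at the Grb10 inner stretch, while cadmium mouse 2 was at 40.4% at Peg3/Usp29 and 15.9% at the stretch.

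**Figure D4:**
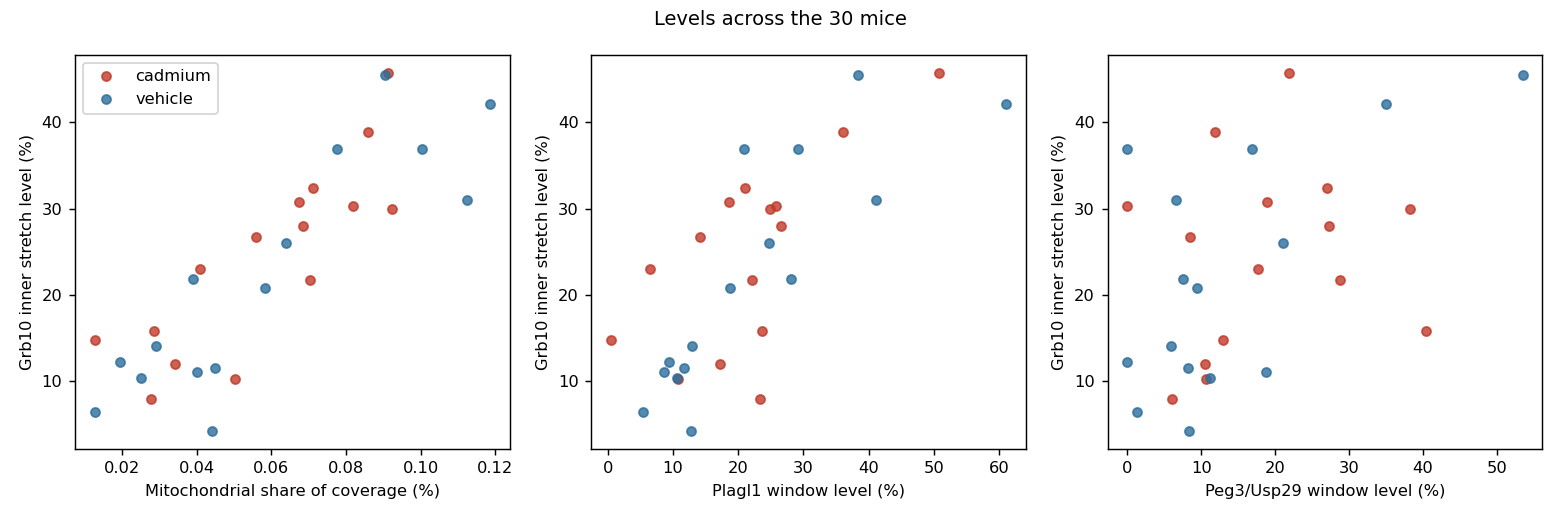
Level of the Grb10 inner stretch (%, vertical axes) in each of the 30 mice against the mitochondrial share of coverage (%), the Plagl1 level (%) and the Peg3/Usp29 level (%) (horizontal axes). Cadmium and vehicle mice overlap in all 3 panels, and r over the 30 mice is 0.858, 0.772 and 0.452 from left to right.

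Measures taken outside these genes moved with some of the loci. The mitochondrial share of coverage rose with the Grb10 inner stretch (r = 0.858, permutation p = 1e-05, adjusted p = 0.000121; rho = 0.831, p = 1e-05, adjusted p = 0.00017), at r = 0.840 within cadmium and 0.876 within vehicle mice. With Plagl1 it gave r = 0.797 (permutation p = 1e-05, adjusted p = 0.000121) and rho = 0.752 (p = 1e-05, adjusted p = 0.00017), and with Mest r = 0.581 (permutation p = 0.00071, adjusted p = 0.00603) and rho = 0.597 (p = 0.00073, adjusted p = 0.00689). Without vehicle mice 12 and 13 these r were 0.867, 0.724 and 0.504. With the Grb10 and Inpp5f windows, r was 0.318 and 0.310 (permutation p = 0.0862 and 0.0950, adjusted p = 0.231 and 0.245), and rho was 0.237 and 0.322 (adjusted p = 0.435 and 0.252). Unlike Plagl1 and Mest, the partly methylated windows of Fkbp6, Peg3/Usp29 and Peg10/Sgce did not pass with the share. There r was 0.450, 0.360 and 0.0616 (adjusted permutation p = 0.0612, 0.167 and 0.806). At Impact r was 0.363 and at the other end of Fkbp6 -0.193 (adjusted permutation p = 0.162 and 0.591).

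The mean of the germ cell gene windows rose with the Grb10 inner stretch (r = 0.920, permutation p = 1e-05, adjusted p = 0.000121; rho = 0.904, p = 1e-05, adjusted p = 0.00017), at r = 0.908 in cadmium and 0.926 in vehicle mice and 0.910 without cadmium mouse 13 and vehicle mouse 13. It also passed in r and rho with Plagl1 (r = 0.804), Mest (r = 0.731) and Fkbp6 (r = 0.570; 0.417 without the same 2 mice), with adjusted permutation p of 0.000121, 0.000121 and 0.0085 for r. With Peg3/Usp29 it passed in r alone (r = 0.475, permutation p = 0.00805, adjusted p = 0.0428; rho = 0.407, p = 0.0264, adjusted p = 0.125), at r = 0.204 in cadmium and 0.622 in vehicle mice and 0.406 without the same 2 mice. The H19 control region moved the other way with the Grb10 inner stretch (r = -0.711, permutation p = 4e-05, adjusted p = 0.000425; rho = -0.597, p = 0.00065, adjusted p = 0.00689) and with Plagl1 (r = -0.746, permutation p = 1e-05, adjusted p = 0.000121; rho = -0.536, p = 0.00251, adjusted p = 0.0213). With Mest it passed in r alone (r = -0.496, permutation p = 0.00572, adjusted p = 0.0324; rho = -0.357, p = 0.0535, adjusted p = 0.193). Without cadmium mouse 13 and vehicle mouse 12 these r were -0.679, -0.658 and -0.531. The windows of the 11 measured germ cell genes summed to 102.7 to 563.8 points in cadmium and 79.8 to 669.6 in vehicle mice, and none was at 0% on average, the lowest being Tdrkh at 2.63% in cadmium and 1.47% in vehicle mice. For epididymal epithelium 3 of 9 listed genes were measured, summing over 5 windows to 77.0 to 184.7 points in cadmium and 78.7 to 210.9 in vehicle mice. For leukocytes 4 of 7 were measured, summing to 231 to 300.02 points in cadmium and 247 to 289.6 in vehicle mice. In these 3 marker lists 0 windows passed. The part of other cells in the levels of the imprinted loci was not tested. Total coverage passed with 0 of the 10 levels in the permutation tests, where r ran from -0.149 to 0.188.

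No window of the other imprinting genes passed either. Of 17 further genes at maternal germline imprints, 12 were measured in 13 distinct windows, and 0 passed in the logistic model, with 8 higher and 5 lower in cadmium mice and a median difference of 0.0382 points, against 0.0149 over all windows. Those with the smallest p were Nnat, at 20.8% ± 12.7 in cadmium and 12.4% ± 12.02 in vehicle mice (unadjusted p = 0.0516), and Commd1, at 0.228% ± 0.497 in cadmium and 0.799% ± 1.56 in vehicle mice (unadjusted p = 0.0517, adjusted p = 0.965 for both). Zrsr1, Nap1l5, Peg13, Mcts2 and Airn averaged 12.3% to 26.1% in both groups, while the windows of Blcap, Herc3, Commd1 and Trappc9, the host genes of Nnat, Nap1l5, Zrsr1 and Peg13, averaged under 1%. The Igf2r window, on chromosome 17 as is Airn, did not follow this split. Its 17 CpGs averaged 13.1% ± 7.13 in cadmium and 13.4% ± 10.2 in vehicle mice. Of 6 genes at paternally methylated loci, 5 were measured in 6 windows and 0 passed, with a median difference of -0.415 points. H19 had the smallest p there, at 71.0% ± 6.20 in cadmium and 74.5% ± 5.49 in vehicle mice at its lower end (unadjusted p = 0.138), and Dlk1 followed at 1.80% ± 1.36 in cadmium and 2.29% ± 0.946 in vehicle mice. Of 14 genes that set, read or keep imprints, 11 were measured in 14 windows and 0 passed, with 9 higher and 5 lower and a median difference of 0.146 points. The smallest p were at Dnmt3a, a de novo methyltransferase, with 90.6% ± 4.78 in cadmium and 91.8% ± 6.63 in vehicle mice, and at Tet2, which oxidises methylcytosine, with 0.564% ± 0.506 in cadmium and 0.373% ± 0.513 in vehicle mice. All 3 lists had 0 windows at an unadjusted p under 0.05.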

How the data were processed

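The members, gene lists and tests were chosen with earlier results of these data known. The deposited tables give, per cytosine and strand, the read count and the methylated fraction, with no header. Per the submitters' processing notes, the tools included Bismark 0.22.3, Trim Galore 0.5.0, methylKit 1.12.0 and bcl2fastq, and the builds are GRCm38 and mm10, which are names of the same assembly. The sources used here do not give their roles or settings. The fraction times the count lay within 0.1 of a whole number, except at 1 cytosine at most per library, so methylated reads are the rounded product. Deposited counts start at 1 read.

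Strands were summed. Reads of all 416876 CpGs, and of the 17236 distinct windows of 3 or more CpGs within 3000 bp of an end of a RefSeq protein-coding, lncRNA or antisense gene, were fitted with a logistic model of treatment (Pearson dispersion not below 1, F test, Benjamini-Hochberg adjustment, threshold 0.05). The code was tested on simulated reads. limma 3.58.1 on percent methylation was an alternative. Differences are cadmium minus vehicle means with Welch 95% intervals. A window's p in the logistic model weighs CpGs by reads, so it does not test this unweighted difference itself. Relations used two-sided permutation tests with 100000 resamples. Wilson intervals and limits of 0 (3 reads) cover counting error only. They use reads summed over CpGs and are too narrow, since PCR copies and CpGs of the same read are not independent. Stretches inside bodies are runs of 3 or more CpGs with gaps up to 400 bp, and runs inside a window have gaps up to 40 bp. RefSeq bodies came without exons.

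Named were all members, and in each window the CpG with the smallest p and that with the widest SD. In each other list the 2 genes of smallest p were named, with Zrsr1, Nap1l5, Peg13, Mcts2, Airn, Igf2r, Blcap, Herc3, Trappc9 and Tdrkh added after their values were seen. The labels number the mice 1 to 15 in each group, but only 7 of 15 same-numbered pairs had correlated deviations over 0.1. Among 210 pairs of libraries within groups a chi-square of read counts averaged 10.6 or more over CpGs, so no library was counted as a copy.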

Additional observations from a re-analysis of the deposited data

How the results depend on the processing

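None of the 7 tested windows passed under any of its 9 to 13 changes of filter, model, strand or level, where the smallest adjusted p was 0.593. Peg3/Usp29 stayed at 2.20 to 5.20 points and Mest at 4.61 to 10.97. Many of the 82 alternatives could not turn a sign, since limma and the 10-point minimum keep the difference of means. The filter of highest coverage and the windows of 1000 bp also left it unchanged. Neither the 10-point minimum nor the share of reads changed p. Signs turned in 9 of the 82 cases, and the cause was not tested. Plagl1 turned to 3.55 on the forward strand and to 3.91 without the 3 mice of highest mitochondrial share, all vehicle mice. Impact turned to -1.21 on the reverse strand and -0.141 as share of reads, and Grb10 to -0.0902 on the reverse strand. Inpp5f turned to 0.306 with 10 mice of each group, 0.0368 without those 3 mice and 0.323 as share of reads. Fkbp6 turned to -4.82 with 10 mice of each group, a setting in which mice differ in the CpGs they average. Of 13 named CpGs, 0 passed under 118 alternatives, many of which likewise keep the difference. The CpG at 128610271 in Inpp5f turned to 0.650 on the reverse strand. With each mouse left out in turn, an alternative added after seeing the data, 0 of the 7 windows passed (smallest adjusted p 0.829), and differences ran from -2.89 to 1.99 at Plagl1, -0.197 to 0.887 at Impact, -0.149 to 0.0502 at Inpp5f, 0.0401 to 0.292 at Grb10, 3.58 to 7.99 at Peg3/Usp29, 2.93 to 9.34 at Mest and 4.74 to 8.39 at Fkbp6. Over all features tested, 2 to 15 CpGs and 0 to 2 windows were then called. All 16 passing relations kept their sign under 64 alternatives. Called CpGs over the whole table numbered 2 with 20 reads, 1 with a difference of 10 points, and 0 on the reverse strand, in limma, with the replicate block and with the mitochondrial share as covariate (7237, 7752 and 8485 at an unadjusted p under 0.05 in limma). Called windows numbered 7 on the forward strand, none of them a member. Shared mouse numbers were not taken as pairs, since their correlations lay between -0.344 and 0.784, and the best match was the own number for 2 of 15. The replicate block left 0 windows and 0 CpGs. Peg10/Sgce rests on 1 CpG, and the 95% intervals at Peg3/Usp29, Mest and Plagl1 each include a difference of 10 points in at least 1 direction.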

Other observations

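Usp29 has a long body whose inner stretches, read in the wider set of CpGs, ranged from nearly unmethylated to fully methylated. On chromosome 7, 8 CpGs at 6781675 to 6782052 averaged 29.6% ± 9.40 in cadmium and 21.9% ± 10.96 in vehicle mice (SD, n = 15 each). Further along, 7 CpGs at 6952237 to 6952273 averaged 18.5% ± 27.4 in 12 cadmium mice and 41.6% ± 40.8 in 11 vehicle mice, while the neighbouring 6 CpGs at 6952760 to 6953001 averaged 41.2% ± 25.6 in cadmium and 36.2% ± 32.0 in vehicle mice. Before the Plagl1 body, 3 CpGs averaged 12.9% ± 20.6 in 11 cadmium mice and 29.4% ± 34.1 in 13 vehicle mice, beside 42 CpGs across its start at 19.9% ± 11.1 in the cadmium group and 22.2% ± 14.9 in the vehicle group. These differences were not tested.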
